A study of Mus musculus with 10 samples.

Results

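Cholesterol synthesis and turnover were followed through 7 genes, Hmgcs1, Sqle, Lss, Dhcr7, Idi1, Fdft1 and Cyp46a1, on dual dye arrays of mouse brain. Probes were assigned to them through the RefSeq accession that each array probe carries. All 7 genes were found, of 18539 genes named on the array, with 12 of its 41174 probes. The study fed male C57BL/6J mice a fish oil enriched diet (FD), high in n-3 PUFA, or a standard lab diet (SD). FD also held more fat and less n-6 PUFA than SD. Feeding ran from 3 weeks of age for 20 weeks, to an age of 5 months. RNA of the left hemibrain was measured, with 1 animal per array. Hemibrain RNA was labeled with Cy-5, so that a log2 ratio above 0 means more signal in the hemibrain than in the Cy-3 channel. The sample labels give FD as the diet of the Cy-5 RNA on all 10 arrays and describe the same arrays as controls, whereas the methods speak of both diets, count 7 arrays (4 FD and 3 SD) beside the 10 analysed here, and do not say which array held which. No array was therefore given a diet, no diets were compared, and values are given per array, by animal number, or as lowest, median and highest.

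The Cy-3 channel is described as pooled SD hemibrain in the labels and as a commercial reference RNA in the methods. The data went against a brain pool. All 5 neuronal markers with a value on every array were above 2-fold higher in Cy-5 on each of them, with a list median log2 ratio of 6.15, as were all 6 oligodendrocyte markers (4.81) and 5 of 6 astrocyte markers (5.46). All 5 proliferation genes, Mki67, Top2a, Ccnb1, Cdk1 and Plk1, were above 2-fold lower in Cy-5 on all 10 arrays, with a list median of -6.40. Of the microglial list 2 of 5 genes were above 2-fold higher (list median 1.06), of the endothelial list 2 of 3 (4.73), and of the liver list (0.24) 1 of 5, namely Ttr, with a median of 6.46. No liver gene cleared background in Cy-3 on all arrays, so that the Ttr ratio reads as a lower bound. The hepatic genes Alb and Fgb were not well above background in either dye on any array, and Apoa1 was not in Cy-5. The ratios below thus set brain against an RNA rich in transcripts of dividing cells, and each reads as a contrast with that reference. The array of animal C10-434 had a weak Cy-5 channel, with 49.8% of probes well above background against 68.2% to 76.9% on the other arrays.

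Cells build cholesterol from acetyl-CoA through mevalonate and isoprenoid units to squalene, which is closed to lanosterol and then trimmed to cholesterol. Plasma cholesterol does not readily cross the blood-brain barrier, so the brain makes its own, largely in glia, and neurons shed the excess as 24S-hydroxycholesterol. SREBP-2 switches on most synthesis genes together when sterols run low.

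Taking the brightest probe of each gene, Hmgcs1 and Cyp46a1 were above 2-fold higher in the hemibrain on all 10 arrays and Lss above 2-fold lower, whereas Sqle, Dhcr7, Idi1 and Fdft1 did not pass 2-fold on every array. That is 2 of 7 genes higher and 1 of 7 lower, with Sqle lacking a value on 1 array, while of 17659 genes with a value on every array 15.7% were higher and 16.1% lower by the same rule. With normexp background correction Hmgcs1 alone passed, and the medians of Lss and Cyp46a1 moved from -1.72 to -1.08 and from 3.17 to 2.41. With subtraction and a floor Lss no longer passed, at a median of -1.14, and with the mean over all probes of a gene Hmgcs1 no longer passed, at 0.89. Brightest probes of the 7 genes were well above background in both dyes on all 10 arrays. These counts are descriptions and carry no test.

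**Figure D1:**
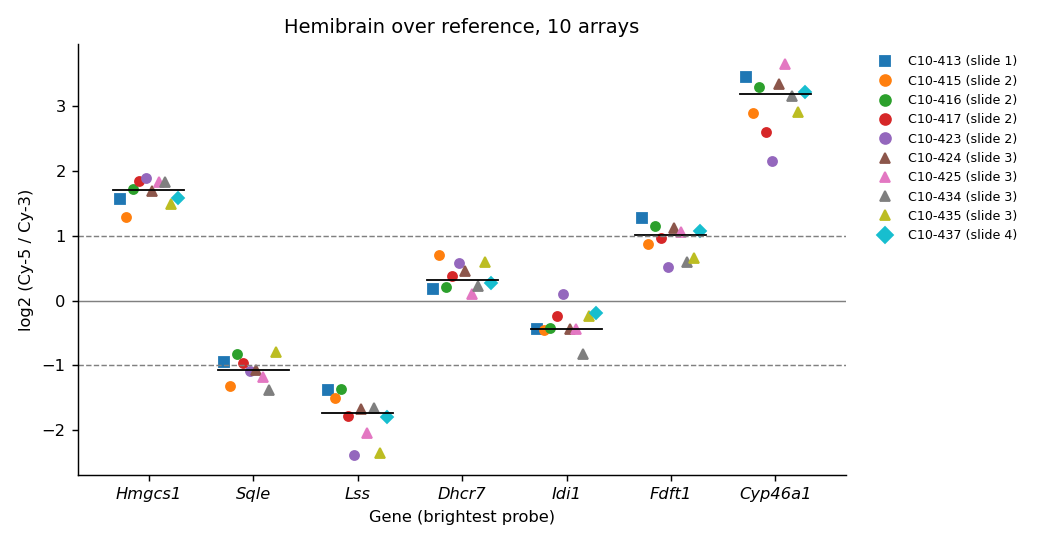
Log2 Cy-5 (hemibrain) over Cy-3 for the brightest probe of each gene, with 1 point per array, a bar at the median and dashed lines at 2-fold. Hmgcs1 and Cyp46a1 lie above the upper line and Lss below the lower line on all arrays, and Sqle has 9 points.

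Hmgcs1 encodes the cytosolic synthase that makes HMG-CoA on the way to mevalonate. Its log2 ratio was lowest at 1.29 (C10-415), had a median of 1.71 and was highest at 1.89 (C10-423), or 2.44-fold to 3.69-fold. Its range over the arrays, 0.60, was narrower than that of most genes, as 23.9% of the 10533 genes well above background in both dyes had a smaller one. Idi1, which interconverts the isoprenoid units IPP and DMAPP, lay close to the reference. Its log2 ratio ran from -0.82 (C10-434) to 0.10 (C10-423) with a median of -0.43, and C10-423 was the 1 array on which it was above 0.

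Fdft1 joins farnesyl units into squalene, the first committed step toward sterols. Its log2 ratio was 0.51 on C10-423, 0.60 on C10-434 and 0.66 on C10-435, had a median of 1.01 and reached 1.27 on C10-413. It was thus higher in the hemibrain on all 10 arrays, at 1.43-fold to 2.41-fold. Sqle, the epoxidase that acts on squalene next, was lower in the hemibrain on all 9 arrays with a value, from -1.37 (C10-434) to -0.79 (C10-435) with a median of -1.07. On C10-437 its single spot carried a flag for uneven Cy-5 signal and was left out.

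Lss, the cyclase that forms lanosterol, was the lowest of the 7 ratios. It was -2.38 on C10-423 and -2.35 on C10-435, had a median of -1.72 and was -1.36 on C10-416, so that the signal in the hemibrain was 2.57-fold to 5.21-fold lower. Dhcr7, which reduces 7-dehydrocholesterol to cholesterol, was slightly higher in the hemibrain on all 10 arrays, from 0.09 (C10-425) to 0.70 (C10-415) with a median of 0.32. Fdft1 and Sqle, which take successive steps, thus stood on opposite sides of the reference.

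Cyp46a1 is the neuronal 24-hydroxylase that turns cholesterol into its exportable form. Its log2 ratios were 3.44, 2.88, 3.29, 2.59, 2.15, 3.33, 3.65, 3.14, 2.91 and 3.20 on C10-413, C10-415, C10-416, C10-417, C10-423, C10-424, C10-425, C10-434, C10-435 and C10-437, with a median of 3.17 or 9.01-fold. C10-423 was lowest and C10-425 highest. This was the widest range of the 7 genes, and 92.9% of the 10533 genes had a smaller one.

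Of the 7 genes, Lss, Fdft1 and Cyp46a1 had their lowest ratio on C10-423, and Hmgcs1 and Idi1 their highest. C10-423 was the lowest array for 18.4% and the highest for 15.6% of 12957 genes, taken as brightest probes well above background in both dyes on at least 8 arrays.

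Levels in each dye, as log2 processed signal less the 75th percentile of its array, showed where the ratios moved. Over the 10533 genes the median range was 0.87 in Cy-5 and 0.23 in Cy-3, and the range was wider in Cy-5 for 93.9% of them. Lss ranged over 1.15 in Cy-5 and 0.17 in Cy-3, Idi1 over 1.11 and 0.28, and Hmgcs1 over 0.59 and 0.26. Cyp46a1 was wide in both dyes, at 1.89 in Cy-5 and 1.28 in Cy-3.

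The Cy-3 level of Cyp46a1 was lowest on C10-434 (-3.11) and C10-435 (-3.02) and highest on C10-416 (-1.84). In Cy-5 its level ran from -0.40 on C10-423 to 1.49 on C10-413. The neuronal markers, each taken relative to its own median over the arrays, had a list median in Cy-5 of -0.27 on C10-423 and 0.14 on C10-413, again the lowest and highest arrays. The oligodendrocyte and microglial lists had the same lowest and highest arrays, at -0.55 and 0.20 and at -0.44 and 0.36. The endothelial list was also lowest on C10-423 (-0.55) but highest on C10-435 (0.22), and the astrocyte list was lowest on C10-416 (-0.11) and highest on C10-437 (0.21). In Cy-3 the neuronal and oligodendrocyte lists, like Cyp46a1, were lowest on C10-434 (-0.82 and -0.33). These are descriptions, and the part of cell makeup in the Cyp46a1 values was not tested. In whole hemibrain, fewer cells of a type and less RNA per cell cannot be told apart.

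A second probe was present for Hmgcs1, Lss, Dhcr7, Idi1 and Fdft1, and it did not always repeat the brightest. For Hmgcs1 the second probe had a median log2 ratio of -0.03, from -2.45 (C10-415) to 0.90 (C10-437). Its Cy-5 signal cleared background on 8 arrays but not on C10-415 and C10-434, where its ratio reads as an upper bound. The gap between the medians of the probes was 1.74. For Dhcr7 the median changed side, to -0.35 on the second probe, with 4 arrays above 0 and 6 below. Its range there was from -1.45 (C10-434) to 0.60 (C10-413).

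Lss remained below 0 on all arrays with its second probe, at -1.38 to -0.45, but no longer past 2-fold on each. For Idi1 the second probe read lower, with a median of -1.29, and for Fdft1 it had a median of 0.67. That Fdft1 probe was dim and cleared background on 7 arrays in Cy-5 and on 4 in Cy-3. Its median and its correlation below thus rest in part on signals not clear of background. Over the arrays the probes of a gene correlated at 0.49 for Hmgcs1, 0.37 for Lss, -0.24 for Dhcr7, 0.56 for Idi1 and 0.55 for Fdft1. Over 2915 genes with 2 probes well above background in both dyes on all arrays, the median gap was 0.55 and the median correlation 0.49, and of these 5 genes only Lss and Dhcr7 meet that filter. The side of the Dhcr7 median against the reference thus rests on the choice of probe. For Hmgcs1 the second probe took no clear side, with a ratio above 0 on 5 arrays and below 0 on 5. The size of the Hmgcs1 ratio thus rests on the probe.

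**Figure D2:**
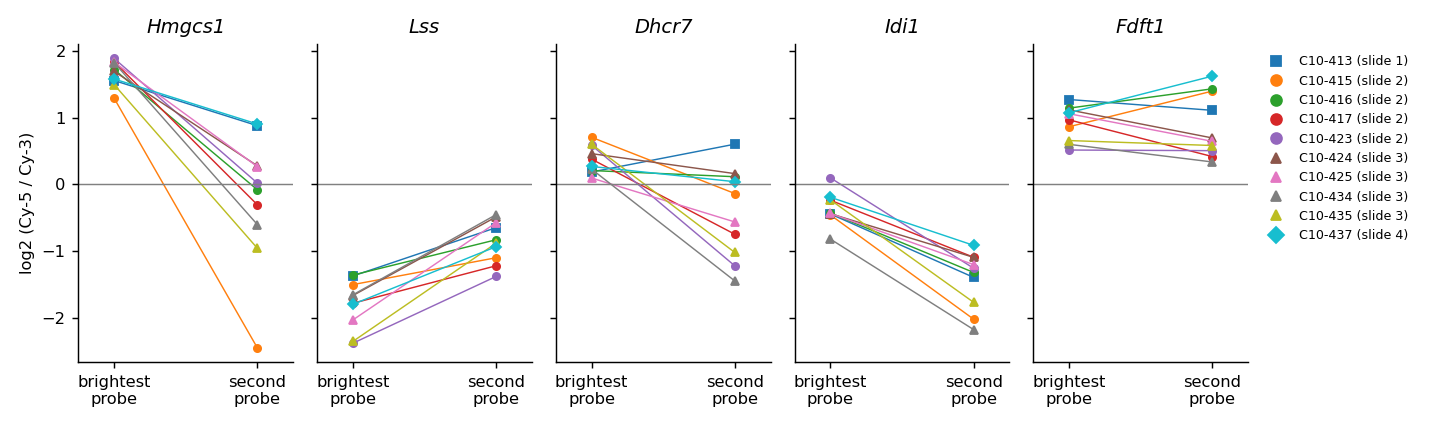
Log2 Cy-5 over Cy-3 on the brightest and the second probe of 5 genes, with 1 line per array. For Hmgcs1 the medians are 1.71 and -0.03.

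The other genes of the pathway were read in the same way. In the mevalonate branch Pmvk had a median log2 ratio of 1.03 and Mvd of -0.49, and neither passed 2-fold on every array.

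Between squalene and cholesterol Lbr was above 2-fold lower on all arrays. It makes a sterol reductase that is also a protein of the inner nuclear membrane, and its log2 ratio ran from -3.98 to -3.04. Hsd17b7 had a median of -1.52 and did not pass 2-fold on every array. A second Hsd17b7 probe had a median 0.77 higher, and the probes correlated at 0.18 over the arrays.

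Of the sterol sensing genes Srebf2, which encodes SREBP-2, had a median of -0.57 and Scap of 0.99, and neither passed 2-fold on every array. The transport, oxidation and esterification list was divided, with 5 of 14 genes higher and 3 lower and a list median of 0.38, beside 15.7% higher, 16.1% lower and a median of 0.05 over all 17659 genes.

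In that list Apoe, the main lipid carrier of the brain, had a median log2 ratio of 5.76 and the sterol transporter Abcg4 of 3.81. Lcat had a median of 2.50 and Abcg1 of 1.47. Cyp7b1, an oxysterol hydroxylase, had a median of 6.73, but its Cy-3 signal cleared background on only 3 arrays, so that the ratio reads as a lower bound. The lower genes were Soat1 (-2.66), which esterifies cholesterol for storage, Cyp39a1 (-1.97) and Soat2 (-3.13), the last clear of background in Cy-5 on only 2 arrays, so that its ratio reads as an upper bound. In the non-sterol isoprenoid list 1 of 3 genes, Dhdds, was higher, with a median of 1.30 and a list median of 0.57, and a second Dhdds probe had a median of -0.43.

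**Figure D3:**
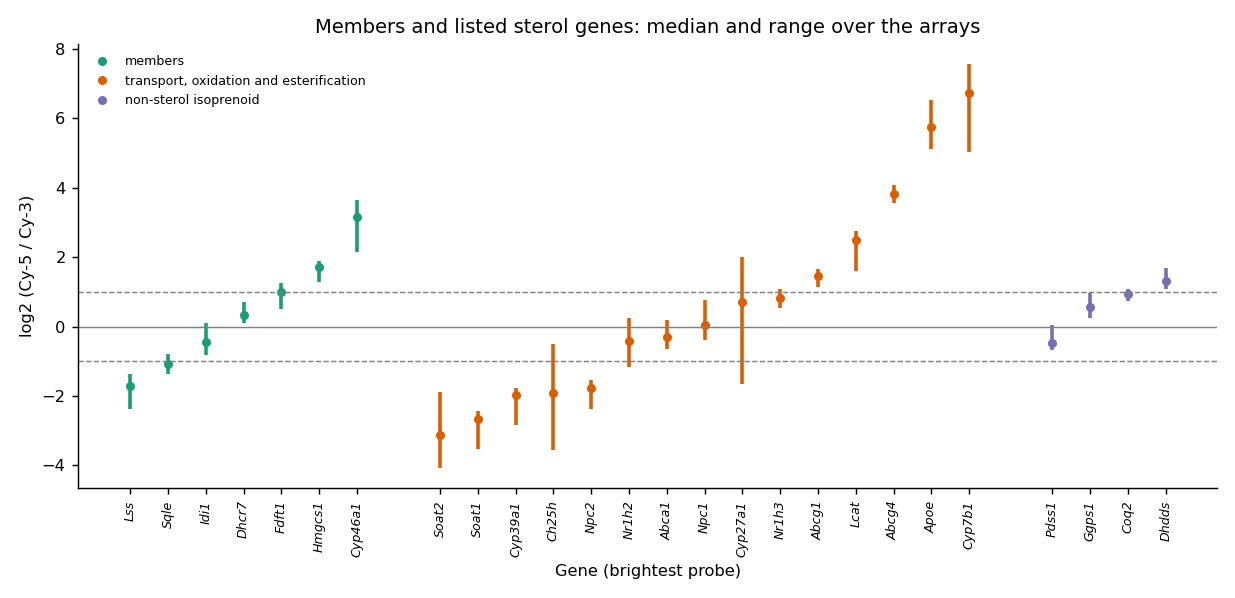
Log2 Cy-5 over Cy-3 for the brightest probe of the 7 genes and of the genes of the transport, oxidation and esterification and the non-sterol isoprenoid lists, with a point at the median and a line over the range of the arrays, grouped by list, and dashed lines at 2-fold. Of the genes clear of background in both dyes on all arrays, Apoe lies highest and Soat1 lowest, while Cyp7b1 and Soat2 are bounds.

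Whether the 7 genes varied together from animal to animal was asked over the arrays, with 21 pairs, Pearson's r and a two-sided permutation test. The test was exact for the 6 pairs with Sqle, which has 9 arrays. No pair passed a Benjamini-Hochberg adjusted p of 0.05 (0 of 21), and the median r over the pairs was -0.11. Diet, where it differed, and slide are shared by arrays, so r describes these arrays alone.

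Fdft1 and Cyp46a1 had the largest coefficient, with r = 0.70 (permutation p = 0.0227, adjusted 0.225) and rho = 0.75 (permutation p = 0.0175, adjusted 0.183) over 10 arrays. Without C10-423 and C10-434, the arrays farthest from the median of Fdft1, r was 0.63. With slide means subtracted over the 8 arrays of the 2 full slides, r was 0.84 (exact permutation p = 0.0260, adjusted 0.273), and a single slide, with 4 arrays, is too small for a value of its own. Of 55466778 pairs among the 10533 genes, 12.3% had an r at least this far from 0.

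Cyp46a1 ran against Dhcr7, with r = -0.69 (permutation p = 0.0251, adjusted 0.225) and rho = -0.75 (permutation p = 0.0173, adjusted 0.183). Without C10-415 and C10-435, r was -0.81, and with slide means subtracted -0.60 (exact permutation p = 0.155, adjusted 0.531). The sign turned with normexp (r = 0.31) and with the mean over all probes (r = 0.35). Lss and Fdft1 had r = 0.66 (permutation p = 0.0366, adjusted 0.225) and rho = 0.60 (permutation p = 0.0727, adjusted 0.382). This fell to r = 0.21 without both C10-423 and C10-435, the arrays farthest from the median of Lss, which also narrows the range of Lss. Without C10-423 alone r was 0.51, and without C10-435 alone 0.59. With slide means subtracted r was 0.61 (exact permutation p = 0.137, adjusted 0.531). With normexp the sign of this pair turned too (r = -0.15). Idi1 and Cyp46a1 had r = -0.64 (permutation p = 0.0509, adjusted 0.225) and rho = -0.37 (permutation p = 0.296, adjusted 0.628). Without C10-423 and C10-434, r was -0.54, with slide means subtracted -0.60 (exact permutation p = 0.177, adjusted 0.531), and with normexp 0.30. Without C10-423 alone it was -0.29, without C10-434 alone -0.81, and with subtraction and a floor 0.01. Lss and Idi1 had r = -0.62 (permutation p = 0.0536, adjusted 0.225) and rho = -0.68 (permutation p = 0.0343, adjusted 0.240). That relation was weaker, at r = -0.21, without both C10-423 and C10-435. Without C10-423 alone r was -0.39, and without C10-435 alone -0.63. With slide means subtracted r was -0.89 (exact permutation p = 0.00694, adjusted 0.146). Among the 15 pairs of the 6 synthesis genes, 5 had an r above 0, against 8 with normexp and 13 with the mean over all probes, so that their signs rest on the probes and the background correction used.

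In Cy-5 levels alone, Fdft1 and Cyp46a1 had r = 0.95 (permutation p = 6e-05, adjusted 0.00126) and rho = 0.92 (permutation p = 0.000660, adjusted 0.0139). Without the 2 arrays farthest from the median r was 0.93, and with slide means subtracted over 8 arrays it was 0.96 (exact permutation p = 0.0104, adjusted 0.109). Of all gene pairs 0.0908% lay at least as far from 0 in Cy-5. In Cy-3 the same pair had r = 0.43. The pair was picked as the largest of 21, and it passed in Cy-5 over 10 arrays but not in the ratio, nor in Cy-5 with slide means subtracted. With other background corrections the ratio of the pair did pass, at r = 0.90 with normexp (permutation p = 5e-05, adjusted 0.00105) and r = 0.92 with subtraction and a floor (permutation p = 0.000570, adjusted 0.0120). With the mean over all probes of a gene it did not, at r = 0.51 (permutation p = 0.129, adjusted 0.541). No share of all gene pairs is given for these settings.

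**Figure D4:**
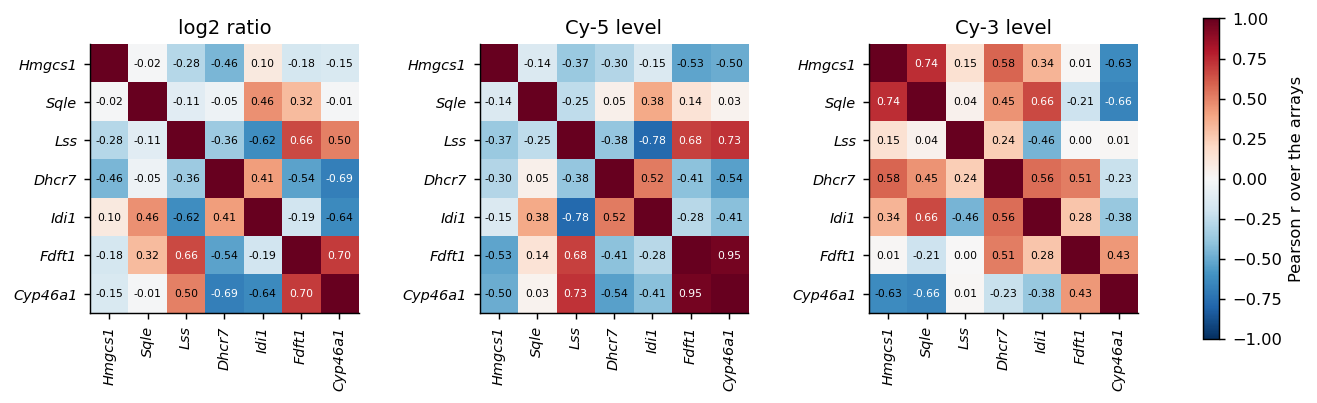
Pearson r between the 7 genes over the arrays, in the log2 ratio, the Cy-5 level and the Cy-3 level (10 arrays, 9 for pairs with Sqle). The square of Fdft1 and Cyp46a1 reads 0.70, 0.95 and 0.43.

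Genes whose ratio followed each member most closely were taken from the 10533 genes. For Fdft1 they were Parva (r = 0.99), Ogdh (0.98) and Fkbp8 (0.98), for Lss Pde2a (0.97), B3gat3 (0.97) and Lrsam1 (0.97), and for Cyp46a1 Gtpbp2 (0.97), Dbn1 (0.95) and Aoc2 (0.94). For Idi1 they were Mettl15 (0.97), Rpe (0.96) and Med7 (0.95), and for Dhcr7 Polg2 (0.95), AW554918 (0.94) and Ssr4 (0.94). For Hmgcs1 they were Macir (0.92), Ncoa7 (0.91) and Itgav (0.90), and for Sqle Pon2 (0.92), D6Wsu163e (0.88) and Parl (0.85) over 9 arrays. Chosen as the highest, they carry no test, and none is a gene of the pathway lists. Lbr came next for Hmgcs1, at rank 4 (r = 0.89), while for Cyp46a1 the nearest pathway gene was Fdft1, at rank 754.

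Between the 2 slides with 4 arrays each, 30 of 40299 probes differed in limma at an adjusted p of 0.05, or 0.0744%, and 0 of the 7 genes were among them. Among their brightest probes Cyp46a1 had the smallest adjusted p, at 0.585, with a mean of 2.73 on slide 2 and 3.26 on slide 3. At an unadjusted p of 0.05 limma called 4034 probes, with 0 brightest probes of the 7 genes and the second probe of Lss (adjusted p of 0.337, means of -1.13 and -0.60). The slides held different animals, so slide and animal cannot be told apart.

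Promoter sequence is a feature the genes could share without their ratios moving together. Of the 7 genes, 5 had an entry in the RefSeq promoter table (GRCm38.p6), namely Hmgcs1, Idi1, Lss, Dhcr7 and Cyp46a1. In the 250 bases before the start, read on both strands, the CCAAT box (CCAAT) was found for 5 of 5 genes, with Dhcr7 counted over 3 starts, and for 37.5% of all 27025 genes of the table. The GC box (GGGCGG) was also found for 5 of 5 genes, and for 35.4% of all genes. The sterol element core CACNCCAC was found for Hmgcs1 alone (6.05% of all genes) and the E-box CACGTG for Dhcr7 alone (6.86%). The promoters of the 3 genes past 2-fold on all arrays are shown 5′ to 3′, with the CCAAT boxes, GC boxes and the sterol element core, or their reverse complements, in capitals. They lie on the plus strand, at chr13:119690101-119690350 for Hmgcs1, chr10:76531355-76531604 for Lss and chr12:108334066-108334315 for Cyp46a1.
Hmgcs1: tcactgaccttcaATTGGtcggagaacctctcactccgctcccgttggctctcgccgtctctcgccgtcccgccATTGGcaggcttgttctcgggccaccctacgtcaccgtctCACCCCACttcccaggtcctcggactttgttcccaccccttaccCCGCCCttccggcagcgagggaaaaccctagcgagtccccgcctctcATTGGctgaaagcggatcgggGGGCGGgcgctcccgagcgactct
Lss: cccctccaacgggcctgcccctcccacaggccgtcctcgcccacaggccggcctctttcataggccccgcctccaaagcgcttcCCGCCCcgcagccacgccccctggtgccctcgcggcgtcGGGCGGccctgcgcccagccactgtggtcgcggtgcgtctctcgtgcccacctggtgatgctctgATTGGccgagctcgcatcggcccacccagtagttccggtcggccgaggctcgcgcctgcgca
Cyp46a1: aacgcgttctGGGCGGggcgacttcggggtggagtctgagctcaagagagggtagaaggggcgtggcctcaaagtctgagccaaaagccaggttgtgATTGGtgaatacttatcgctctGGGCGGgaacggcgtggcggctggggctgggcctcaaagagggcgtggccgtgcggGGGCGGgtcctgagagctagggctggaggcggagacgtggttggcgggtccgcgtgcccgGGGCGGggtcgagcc
Hmgcs1 held 3 CCAAT boxes, 2 GC boxes and 1 sterol element core, Lss 1 CCAAT box and 2 GC boxes, and Cyp46a1 1 CCAAT box and 4 GC boxes. A match is a description of letters and not of binding.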

How the data were processed

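RNA of 10 hemibrains was measured on 10 dual dye arrays. The authors deposited Feature Extraction output (version 10.10.1.1 in the file headers), with intensities per dye on a linear scale, already background-subtracted and dye-normalized as processed signals, and a log10 ratio per spot. The authors also deposited a table whose values matched log2 Cy-5/Cy-3 of the same array (correlation of at least 0.997 across probes), with column medians from -0.05 to 0.10. From these, log2 of the processed Cy-5 over Cy-3 signal was computed without control or outlier-flagged spots, averaging the spots of a probe. No genome build of the probes was used. Accessions were named through RefSeq transcripts of GRCm38.p6, which matched 27198 of 41174 probes (66.1%). For each gene the probe with the highest mean log2 brightness over both dyes was used. The well above background call needed the flag on a share of 0.5 or more of a probe's spots. Named genes were the 7 members, genes of the fixed lists, and the 3 genes of highest r per member. Slides were compared with limma 3.58.1 in R 4.3.3 with Benjamini-Hochberg adjustment over all probes. Correlations used 100000 permutations in Python 3.11.15, or all permutations under 10 arrays, and pairs leave out an array without a value. Both tests were tested on simulated data. Alternatives were loess (span 0.3), median centring, the deposited table, normexp on median signals (offset 50), subtraction with a floor of 0.5, other probe rules, each dye alone and arrays left out. The members and lists were chosen with earlier results of these data known. Pdss2 had no matched probe. Some listed genes are not reported here. Precision is limited by how few arrays there are.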

Additional observations from a re-analysis of the deposited data

Results flagged for a closer look

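In 49 measures of the members, their pathway lists, the cell type lists and the arrays, an array stood apart from the others in 5, where chance gives about 1 in 20. C10-434 did so in 4. Its share of probes well above background was 49.8% in Cy-5, against 68.2% to 76.9% on the others, and 61.9% in Cy-3, against 70.3% to 79.1%. The neuronal list, relative to gene medians, was at 1.097 on it in the log2 ratio, against -0.35 to 0.29, and at -0.82 in Cy-3, against -0.26 to 0.11. C10-423 stood apart in the Cy-5 level of the endothelial list, at -0.55 against -0.15 to 0.22. No array stood apart in the ratio of any probe of the 7 genes by the same gap rule. Without C10-434, the same 3 genes, Hmgcs1, Cyp46a1 and Lss, passed 2-fold on all remaining arrays, a setting chosen after seeing the data.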

How the results depend on the processing

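Hmgcs1, Cyp46a1 and Lss passed 2-fold on all arrays (3 genes) with loess, median centring, the deposited table, a 1.5-fold limit, only genes well above background, and without C10-434 (chosen after seeing the data). Sqle would pass the 1.5-fold limit on the 9 arrays with a value. With normexp 1 gene passed, Hmgcs1, and with subtraction and a floor 2, Hmgcs1 and Cyp46a1, so that Lss was lost in both, at medians of -1.08 and -1.14. With the mean over all probes of a gene 2 passed, Cyp46a1 and Lss, while Hmgcs1 fell to a median of 0.89 and the median of Dhcr7 turned to -0.016. Medians also moved by more than the standard deviation over the arrays for Sqle, to -0.81 with both background settings, for Cyp46a1, to 2.41 with normexp, and for Lss and Idi1, to -1.30 and -0.85 with the mean over probes. Of 21 pairs, 1 passed with normexp, 1 with subtraction and a floor and 1 in Cy-5 alone, in each case Fdft1 with Cyp46a1, and 0 passed in every other setting, with 0 to 0 when an array was left out. Without C10-423 the ratio r of that pair was 0.51, and without C10-434 it was 0.82. Without C10-434, r was also 0.81 for Lss with Fdft1 and -0.81 for Idi1 with Cyp46a1. Each of these had an adjusted p of 0.0718 in the exact permutation test. Between the slides limma called 30 probes, 0 with normexp (1097 at an unadjusted p under 0.05), 1 with subtraction and a floor, 2704 in Cy-5 alone, 5241 in Cy-3 alone and 68 among probes well above background in Cy-5. With an array left out it called 0 to 18. The cause was not tested. The second probes of Hmgcs1, Idi1 and Fdft1 did not clear background on every array.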

Other observations

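Probes of the pathway other than the brightest often read low on C10-415 and C10-434, a pattern chosen after the values were seen. Among 24 probes of members and listed pathway genes that were not the brightest of their gene and were well above background in both dyes on at least 8 arrays, C10-415 was the lowest array for 10 (41.7%), while it was lowest for 21.6% of 5776 such probes over all genes. Among 43 brightest probes of the same pathway genes it was lowest for 4 (9.30%), beside 12.3% of 12957 over all genes. The second Hmgcs1 probe gave -2.45 on C10-415, where its Cy-5 signal did not clear background. Probes of a gene are not independent, and no test was made. C10-434 was lowest for 8 of the 24 (33.3%), beside 1213 of the 5776, and its median deviation over the 24 probes was -0.42, against -0.39 for C10-415. Among the 43 brightest probes C10-434 was lowest for 11 (25.6%), beside 15.8% of 12957 over all genes, so that low values on it were not limited to the other probes.

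Cyp27a1, the sterol 27-hydroxylase, had a mean log2 ratio of 1.47 on slide 2 and -0.27 on slide 3. The adjusted p was 0.174 in limma, and the gene was picked after the values were seen. In Cy-3 alone limma called Cyp27a1 and Nr1h3, 2 of 14 genes of the transport, oxidation and esterification list, at an adjusted p of 0.05, beside 5241 of 40299 probes, and in Cy-5 alone it called no gene of the list (smallest adjusted p 0.406). Its Cy-5 signal cleared background on 9 of 10 arrays.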
